A study of Saccharomyces cerevisiae with 6 samples.

Results

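The genes for the subunits of the nuclear RNA polymerases of budding yeast were examined in a dsRNA immunoprecipitation. They were taken as every protein-coding gene whose name is RPA, RPB, RPC or RPO followed only by digits, which gave 31 of the 15753 annotated features and of the 6316 protein-coding genes among them. Of these, 7 encode subunits of Pol I, 7 of Pol II and 9 of Pol III, 2 encode subunits shared by Pol I and Pol III, and 5 encode subunits shared by all 3 enzymes. The name pattern also takes RPO41, whose protein is the separate polymerase of the mitochondrion. RPO41 is counted among the 31 genes, and its own values are given after those of the nuclear subunits. The pattern misses RET1, the second largest subunit of Pol III, whose values are given with the other transcription genes.

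Wild-type Saccharomyces cerevisiae of the S288C background was grown at 25 °C without further treatment. J2 was used for RNA co-immunoprecipitation and sequencing (RIP-seq). The antibody recognises double-stranded RNA (dsRNA). Total RNA (90 µg per reaction) was incubated for 120 min with 3 µg of antibody. The J2 eluate libraries (n = 3) hold the RNA that came off the beads of that incubation. The J2 unbound libraries (n = 3) hold what stayed in the supernatant after a further round of 120 min with another 3 µg of J2 and fresh beads, so the unbound RNA went through both rounds and is not the RNA from before the capture. Both groups come from the same untreated strain. Feature counts summed to between 18645818 and 43141091 per library. Values are read counts divided by a size factor of the library (normalised counts). They are levels relative to the other features of a library, and neither amounts nor shares of its total reads. The lowest value of any subunit gene in any library was 64.2 normalised counts, for RPC11 in eluate 2, far above the 1.82 that 3 reads are worth there.

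Yeast, like other eukaryotes, divides nuclear transcription between 3 polymerases. Pol I makes the precursor of the large ribosomal RNAs, Pol II makes mRNAs and most non-coding RNAs, and Pol III makes transfer RNAs and the smallest ribosomal RNA. The 3 enzymes are built on a common plan. A pair of large subunits forms the active centre, a smaller heterodimer nucleates assembly, a stalk of a further heterodimer binds the emerging RNA, and a set of small subunits is common to all. Natural antisense RNAs (asRNAs) and the cryptic (CUT), stable (SUT) and Xrn1-sensitive (XUT) transcripts can run across such genes on the opposite strand, and an RNA pairing with the mRNA is the kind of duplex that J2 binds.

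The following stretches come from inside 4 subunit genes, at the edge of a transcript annotated on the opposite strand, and are shown because these loci carry the contrast described later. Each holds 120 bases of the coding sequence, read 5′ to 3′ on the strand of the subunit gene from the R64 assembly, the RefSeq build of sacCer3. Capitals mark the 60 bases that the named opposite transcript also covers. For RPB4 (plus strand, chrX:151404-151523) the partner is antisense4019, for RPC37 (plus strand, chrXI:488329-488448) GCN3, for RPC25 (minus strand, chrXI:175900-176019) RPT1 and for RPC19 (plus strand, chrXIV:413046-413165) YNL114C. The last 3 partners are annotated as protein-coding and were chosen after their values had been seen.
RPB4: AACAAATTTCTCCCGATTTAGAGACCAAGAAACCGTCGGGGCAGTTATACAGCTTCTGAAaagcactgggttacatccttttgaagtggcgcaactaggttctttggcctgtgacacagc
RPC37: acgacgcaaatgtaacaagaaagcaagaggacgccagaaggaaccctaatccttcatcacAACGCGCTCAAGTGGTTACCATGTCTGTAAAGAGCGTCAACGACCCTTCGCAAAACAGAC
RPC25: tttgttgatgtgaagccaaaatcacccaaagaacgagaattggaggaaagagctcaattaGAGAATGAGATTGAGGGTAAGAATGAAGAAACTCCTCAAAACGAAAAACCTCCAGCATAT
RPC19: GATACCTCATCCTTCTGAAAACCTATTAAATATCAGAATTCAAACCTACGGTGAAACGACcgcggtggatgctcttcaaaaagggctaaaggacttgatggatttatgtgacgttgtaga

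Most subunit mRNAs had lower normalised counts in the eluate than in the unbound RNA. Of the 31 genes, 28 were reduced in the J2 eluate, none was enriched, and 3 did not pass the test in either direction (limma on log2(normalised count + 1), Benjamini-Hochberg adjusted over all 15753 features). For comparison, 74.4% of the protein-coding genes with a mean normalised count above 40 were called reduced and 8.0% enriched, so the count for the subunit genes stood in the direction that most mRNAs took. All 31 subunit genes were above that mean. In the same 28 genes the 3 eluate values lay wholly below the 3 unbound values, against 75.9% of the protein-coding genes, and in none did they lie wholly above, against 8.68%. The median log2 fold change of the subunit genes was -1.88, beside -1.39 for protein-coding genes and -0.46 for all 10188 features above the minimum. Without RPO41, 27 of the 30 nuclear subunit genes were reduced and their median was -1.92. Within the 3 pairs of libraries that share a number the subunit median was -1.92, -2.03 and -1.86, and 23 of the 31 genes lay below the median of protein-coding genes. None of the 31 was enriched at an unadjusted p under 0.05 either, by limma, by edgeR or by DESeq2.

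The size of these changes depends on the scaling of the libraries. With the total count as scale, 23 subunit genes were called reduced and 3 enriched, beside 48.9% and 21.5% of protein-coding genes. With the median ratio over protein-coding genes alone as scale, the counts were 20 reduced and 5 enriched, beside 37.7% and 32.8% of protein-coding genes. The distance between the subunit median and the protein-coding median was -0.49 as reported and -0.48 under both of these scalings. A change of scale shifts all genes by nearly the same amount, so this distance could hardly move and tests nothing about the scaling.

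**Figure D1:**
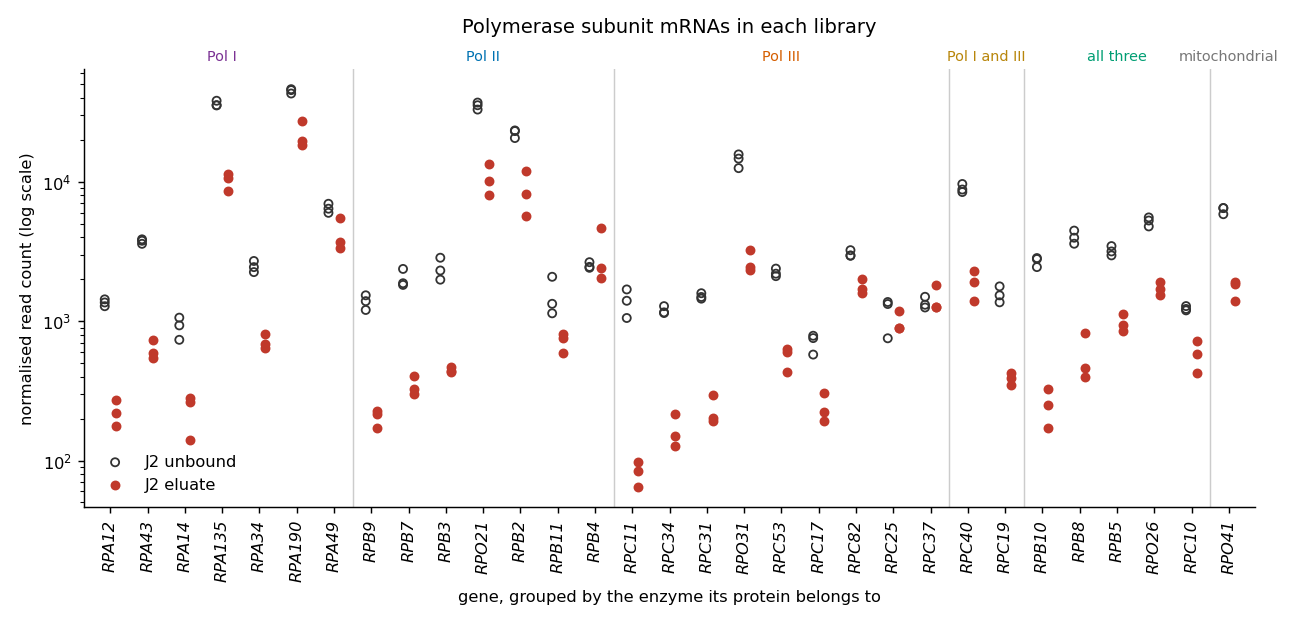
Normalised read count (vertical axis, log scale) of the 31 genes in each of the 3 unbound libraries (open circles) and the 3 eluate libraries (filled circles), ordered within each enzyme by fold change. In 28 genes all filled circles lie below all open circles; in RPB4, RPC25 and RPC37 they overlap.

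All 7 genes for subunits that belong to Pol I alone were reduced, and their median on the log2 scale was -1.84. The large subunits RPA190 and RPA135, which form the active centre, were the most abundant members per length in the unbound RNA, at 8106 ± 303 and 8793 ± 384 normalised counts per kb (SD, n = 3). RPA190 read 46222, 43026 and 45506 in unbound 1 to 3 and 27191, 19545 and 18418 in eluate 1 to 3, a log2 fold change of -1.07 ± 0.23 (SE, adjusted p = 0.00183). Its partner RPA135 fell further, from 38174, 35358 and 35493 to 11402, 8569 and 10666, by 1.84 on the log2 scale (SE 0.20). Neither gene had an overlapping value between the groups.

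RPA49 and RPA34, whose proteins form a heterodimer related to the Pol II factor TFIIF, parted in the same way. RPA34 was 3.48-fold lower in the eluate (ratio of means), at 639, 682 and 807 against 2704, 2443 and 2250 in the unbound RNA. RPA49 changed least of the Pol I genes, from 6958, 6414 and 5992 to 5466, 3706 and 3343 (log2 fold change -0.66 ± 0.21, adjusted p = 0.0166). The RPA49 call is the weakest of the 28. It was lost with TMM scaling (adjusted p = 0.0621), without unbound 1 (0.0732) and without eluate 2 (0.0516), all by limma. With total count scaling the change was 0.26 (adjusted p = 0.16), and with mRNA-only scaling it was 0.66 and called enriched (adjusted p = 0.00947).

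The stalk genes RPA43 and RPA14 were 6.02-fold and 3.98-fold lower in the eluate. RPA12, a small subunit needed for cleavage of the nascent transcript, was the most reduced Pol I gene, going from 1362, 1281 and 1434 to 270, 219 and 178 (log2 fold change -2.63 ± 0.19). Part of the RPA14 transcript, 258 bases or 38.5% of it, is also annotated to YDR157W on the same strand, so reads there count for both.

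Among the genes for subunits of Pol II alone, 6 of 7 were reduced, and RPB4 did not pass the test. RPO21, the largest subunit with the repetitive C-terminal domain, dropped from 35440, 33000 and 37041 to 10059, 8053 and 13342 (log2 fold change -1.77 ± 0.23). RPB2, the second largest, showed the widest spread among reduced large subunits, with 23132, 20612 and 23373 in the unbound libraries and 12013, 8171 and 5663 in eluate 1 to 3 (-1.44 ± 0.27). Eluate 1 was highest for RPB2 and eluate 3 for RPO21, so the ratio of the 2 large subunits differed widely between eluates.

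RPB3 and RPB11 form the assembly heterodimer of Pol II. RPB3 was at 437, 469 and 432 in the eluates and 2311, 1986 and 2853 in the unbound RNA, which is 5.34-fold lower. RPB11 fell less, by 1.04 on the log2 scale (SE 0.24), from 1333, 1139 and 2083 to 759, 587 and 816. RPB9, a small subunit involved in fidelity and transcript cleavage, was the most reduced of the Pol II genes, from 1534, 1392 and 1204 to 215, 173 and 226 (-2.75 ± 0.18).

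RPB4 and RPB7 encode the stalk of Pol II, and their mRNAs differed more than those of any other partners compared. RPB7 held 1872, 1821 and 2371 normalised counts in unbound 1 to 3 and 326, 302 and 404 in the eluates, a log2 fold change of -2.55 ± 0.19 (adjusted p = 1.67e-06). RPB4 held 2650, 2453 and 2416 in the unbound libraries and 2055, 2394 and 4631 in eluate 1, 2 and 3, with a log2 fold change of 0.18 ± 0.27 (adjusted p = 0.57). The eluate values of RPB4 straddle the unbound ones, with eluate 3 well above and the others just below. Without eluate 3 the fold change of RPB4 was -0.18. By mean level per length, RPB4 ranked 14th of the 31 genes in the unbound RNA and 2nd in the eluate. The eluate rank leans on eluate 3 (1908, 2223 and 4300 per kb in eluate 1 to 3), and the values overlap those of the next gene.

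**Figure D2:**
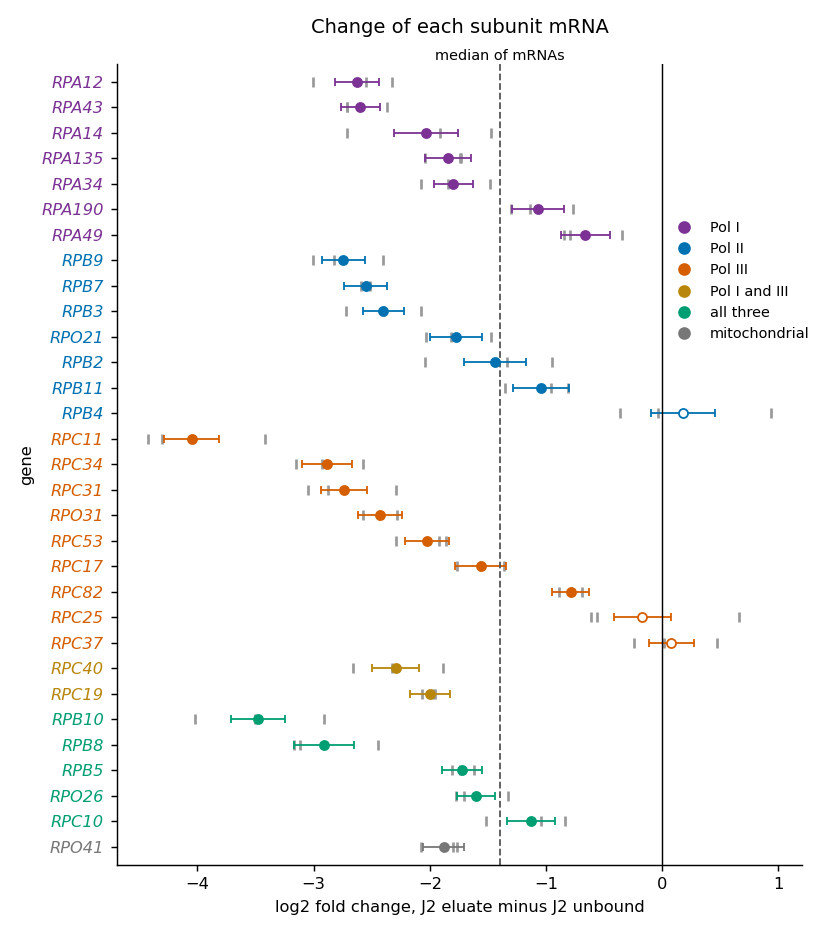
Log2 fold change of each subunit gene, eluate minus unbound (horizontal axis), with its standard error. Filled points are called reduced and open points are not called; grey ticks are the 3 pairs of same-numbered libraries, and the dashed line is the median of protein-coding genes at -1.39. Colours give the enzyme, and the open points are RPB4, RPC25 and RPC37.

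Of the 9 genes for subunits of Pol III alone, 7 were reduced, and the median of the 9 was -2.02 on the log2 scale. RPC11, a small subunit that cleaves the transcript and takes part in termination and re-initiation, had the lowest log2 fold change of all members, -4.05 ± 0.24 (adjusted p = 5.36e-07). Its values were 1690, 1401 and 1054 in unbound 1 to 3 and 84.5, 64.2 and 97.9 in the eluates, which is 16.8-fold lower. Only 1.1% of the 5724 protein-coding genes above the minimum had a lower fold change. The largest subunit, RPO31, went from 15731, 14675 and 12536 to 3225, 2468 and 2318 (-2.43 ± 0.19).

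RPC82, RPC34 and RPC31 form a trimer that works in initiation, and they did not fall evenly. RPC34 dropped 7.27-fold, from 1157, 1144 and 1282 to 151, 128 and 215, and RPC31 6.58-fold, from 1587, 1492 and 1451 to 191, 202 and 295. RPC82 was only 1.72-fold lower, at 1999, 1598 and 1713 against 3233, 2964 and 2946 (log2 fold change -0.79 ± 0.16, adjusted p = 0.00143). Their eluate values did not overlap the unbound ones.

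RPC53 and RPC37 form a heterodimer active in termination and re-initiation. RPC53 fell from 2384, 2104 and 2192 to 631, 429 and 605 (-2.02 ± 0.19, adjusted p = 7.41e-06). RPC37 read 1496, 1254 and 1312 in the unbound libraries and 1263, 1266 and 1820 in eluate 1 to 3 (0.08 ± 0.19, adjusted p = 0.714). For RPC37, eluates 1 and 2 lay inside the unbound range and eluate 3 above it. Without eluate 3 its fold change was -0.10 on the log2 scale.

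RPC25 and RPC17 form the stalk of Pol III. RPC17 was reduced (-1.56 ± 0.22), with 306, 222 and 193 in the eluates and 786, 756 and 576 in the unbound RNA. RPC25 was at 1328, 1373 and 754 in unbound 1 to 3 and at 900, 898 and 1193 in eluate 1 to 3 (-0.17 ± 0.25, adjusted p = 0.549). Unbound 3 was the lowest RPC25 value and eluate 3 the highest eluate value, and the 2 groups overlap through unbound 3. Without unbound 3 the fold change of RPC25 was -0.45 on the log2 scale (adjusted p = 0.0654). Within the pair of libraries numbered 3 the log2 difference was 0.66, beside -0.56 and -0.61 in the others.

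The subunits that the enzymes share were all reduced. RPC40 and RPC19, the assembly heterodimer of Pol I and Pol III, were 4.81-fold and 4.01-fold lower in the eluate. RPC40 was at 9648, 8804 and 8449 in the unbound RNA and at 1921, 1392 and 2278 in the eluate. The 5 subunits common to all enzymes ranged widely. RPB10 fell 10.9-fold, from 2838, 2794 and 2445 to 250, 171 and 324, and RPB8 fell 7.18-fold, from 3971, 3596 and 4467 to 458, 398 and 820. RPB5 (log2 fold change -1.72), RPO26 (-1.60) and RPC10 (-1.13) fell less, and their eluate values also lay below every unbound value. RPO26, whose protein is also called Rpb6, is the only member with an intron. The mitochondrial polymerase gene RPO41 was reduced as well, from 6489, 5856 and 6476 to 1904, 1391 and 1859 (-1.88 ± 0.18).

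A ratio between 2 genes of the same library does not depend on how libraries are scaled. Such ratios were taken for 10 pairs of partner subunits, a comparison added after the values of the single genes were known. In 7 of the 10 pairs the eluate ratios lay wholly outside the unbound ratios. How often other pairs of mRNAs part in this way was not tested, so the count does not set partner subunits apart. With 3 libraries against 3, taken as unpaired although same-numbered libraries share a reaction, the exact permutation test (two-sided) cannot go below 0.10. These 7 pairs of subunits reached that value (Benjamini-Hochberg adjusted p = 0.143 over the 10), so none passes 0.05. The log2 ratio of RPB4 to RPB7 was 0.50, 0.43 and 0.03 in the unbound libraries and 2.66, 2.99 and 3.52 in the eluates, a difference of 2.73. RPC53 stood above RPC37 in every unbound library (log2 ratios 0.67, 0.75 and 0.74) and below it in every eluate (-1.0, -1.56 and -1.59). These ratios are of counts not divided by length. The order of RPC53 and RPC37 was turned per length too (unbound 1338 ± 86 and 1116 ± 104 per kb, eluate 333 ± 66 and 1195 ± 265). For RPB3 and RPB11 the mean log2 ratio was 0.68 ± 0.20 (SD, n = 3) in the unbound RNA and -0.68 ± 0.31 in the eluate. Per length, however, RPB3 and RPB11 overlapped already in the unbound RNA (1663 ± 306 and 1685 ± 553 per kb), so no turn of their order was seen. RPC25 over RPC17 differed by 1.40 on the log2 scale, RPA49 over RPA34 by 1.14 and RPA190 over RPA135 by 0.77. RPO31 over RET1 moved by only -0.30. The ratios of RPO21 to RPB2, RPA43 to RPA14 and RPC40 to RPC19 overlapped between the groups.

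Subunits of the same enzyme are needed in equal or near-equal number. Their mRNAs were closer to each other in the unbound RNA than in the eluate. Levels per kb spanned 5.85- to 7.81-fold among the 14 Pol I genes (shared subunits included) in the unbound libraries and 15.8- to 16.6-fold in the eluates. For the 12 Pol II genes the span was 3.94- to 4.67-fold and then 11.3- to 17.6-fold, and for the 16 Pol III genes 7.46- to 9.13-fold and then from 13.9-fold up to 18-fold. In each enzyme every eluate library spanned more than every unbound library. The 3 enzymes share members, so these spans are not independent of each other. No such span was taken for other sets of mRNAs, so whether the wider eluate spread is particular to polymerase subunits was not tested.

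The order of the levels was only partly resolved. In the unbound RNA the mean per length ran from RPA135 and RPA190 over RPC40 (6104 per kb), RPO21 (5737), RPO26 (5462), RPB8 (5008) and RPB2 (4884) down to RPC25 (962), RPC17 (923) and RPC34 (839). Of the 30 neighbours in that order, 6 were separated in all libraries and 24 overlapped. RPA135, RPA190, RPB2, RPA49, RPA43 and RPC82 were the genes that stood clear of the next one down. In the eluate RPA190 (3919 per kb), RPB4 (2810), RPA49 (2513) and RPA135 (2471) came out on top and RPC34 (115) at the bottom, and only 1 of 30 neighbours was separated. The plot of levels by enzyme shows the wider spread.

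**Figure D3:**
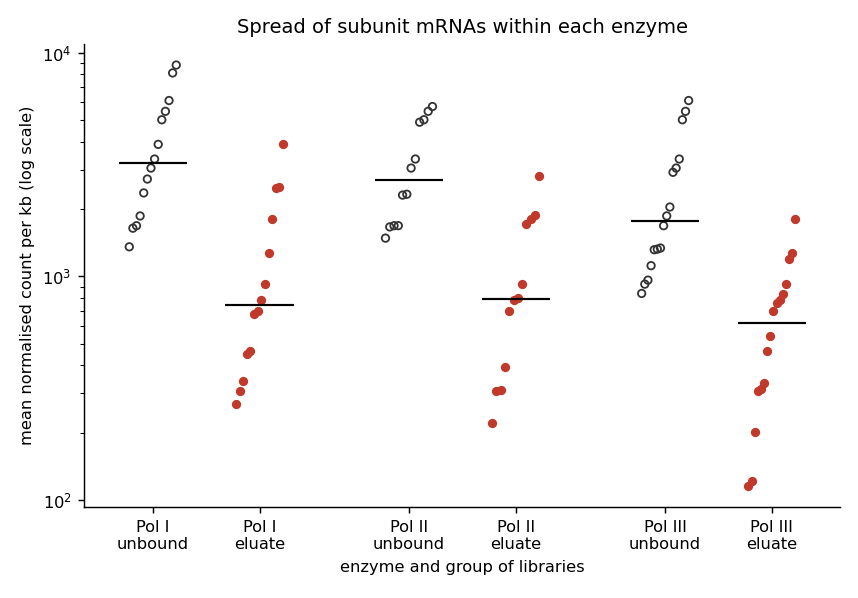
Mean normalised count per kb (vertical axis, log scale, n = 3) of the subunit genes of each enzyme, shared subunits included, in the unbound (open) and eluate (filled) libraries; a bar marks the median. The filled points sit lower and spread more widely, with RPC34 lowest at 115 per kb.

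Most of the RNAs annotated on the strand opposite the subunit genes that passed the minimum went in the other direction. A feature was taken as opposite where it overlapped at least 0.5 of the gene or of itself. With a mean above 40, 19 such features lay across from 15 of the 31 genes, 12 of them non-coding and 7 protein-coding. That mean is over all 6 libraries, so a feature can pass it through high eluate values alone. This held for antisense4393 (mean 8.55 in the unbound RNA and 108 in the eluate), YNL114C (14.5 and 221), antisense2318 (22.9 and 112) and CUT510 (23.1 and 77.1). Their calls as enriched are therefore not independent of the minimum. The feature antisense2401 (33.9 and 51.5) passed in the same way and was not called. Of the 19, 13 were enriched in the eluate, 4 were reduced and 2 did not pass the test. Among the 12 non-coding ones 11 were enriched and 1 was not called. The 4 reduced features were the protein-coding YIL020C-A, AFT1, DCD1 and MGM1, across from RPB3, RPB9, RPC10 and RPB10, and YOR223W, across from RPB8, was not called (these 5 are named after their values had been seen). As background, 34.6% of all features above the minimum were enriched and 48.0% reduced, as were 81.7% of asRNAs, 84.7% of CUTs, 64.9% of XUTs and 64.6% of the transcripts named Unit, so enrichment was the usual direction of these classes. Several of the 19 overlap each other on their own strand and share reads. Whether the counting used strand is not given in the sources used here. The asRNA across RPA190 (antisense2653) had only 0.0514% of the level of RPA190 per length in the unbound RNA although it lies entirely within it, so the counts kept the strands apart there.

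Across from RPB4, antisense4019 covered 58.0% of the gene and rose from 80.4, 72.6 and 102 normalised counts in unbound 1 to 3 to 996, 1232 and 2145 in eluate 1 to 3 (log2 fold change 4.02 ± 0.28, adjusted p = 1.33e-06). Unit194, on the same stretch and sharing its reads, rose by 3.89. Per length, antisense4019 stood at 5.84% of RPB4 in the unbound RNA and at 83.0% in the eluate. Eluate 3 was the highest library for RPB4 and for antisense4019 alike. The 3′ end of YUR1, a mannosyltransferase gene on the other strand, also reaches into RPB4 and shares 403 bases with it. That is 37.4% of RPB4 and 25.5% of YUR1, below the overlap set for opposite features. YUR1, named after its values had been seen, increased from 701, 678 and 955 to 2618, 3173 and 3061 (1.93 ± 0.19), so RPB4 lay opposite enriched RNA at both of its ends. This was not particular to RPB4. The reduced RPC19 lay opposite the enriched YNL114C and antisense954 (1.47 ± 0.31), and the reduced RPA34 shared 405 bases with the enriched YJL147C (1.11 ± 0.20). The overlaps of antisense954 and YJL147C are also below the set one.

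RPC25 is crossed by XUT_11F-77, which covered 64.6% of it and spans the whole coding sequence. This transcript went from 43.2, 69.1 and 138 to 426, 484 and 725 (log2 fold change 2.82 ± 0.39, adjusted p = 0.000106), and Unit220 on the same stretch rose by 2.85. Its level per length was 11.2% of RPC25 in the unbound RNA and 84.6% in the eluate. Unbound 3, where RPC25 was lowest, had the highest value of XUT_11F-77 among the unbound libraries. RPT1, which encodes a proteasome ATPase, meets RPC25 tail to tail over 565 bases and fell by 1.19 on the log2 scale.

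RPB11 and RPA49, which fell less than most subunit genes, also had enriched RNA opposite. RPC82 (-0.79), RPA190 (-1.07) and RPC10 (-1.13) fell about as little. No feature above the minimum opposite these genes was called enriched. CUT368 covers all of RPB11 and rose from 86.4, 74.4 and 67.0 to 660, 554 and 670 (3.03 ± 0.20), and XUT_15F-144 rose by 2.98. The level of CUT368 per length was 3.17% of RPB11 in the unbound RNA and 55.3% in the eluate. Across RPA49, antisense745 rose from 95.3, 93.9 and 125 to 265, 333 and 341 (1.58 ± 0.22), yet reached only 4.05% of the RPA49 level per length in the eluate. So the relative level of the opposite RNA differed by more than an order of magnitude between genes whose partners were called alike.

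Other subunit genes were strongly reduced although RNA opposite to them was enriched. The enriched features named here (antisense4393, antisense2318, CUT510 and YNL114C) passed the minimum only through their eluate values. Their enrichment is therefore not independent of the minimum. RPB7 fell by 2.55 while antisense4393, over 94.0% of it, rose from 7.44, 5.31 and 12.9 to 85.0, 87.8 and 150 (3.54 ± 0.40). The value of 5.31 in unbound 2 is worth 3 reads. RPO31 fell by 2.43 while antisense2318, over its entire length, rose from 2.98, 42.5 and 23.2 to 88.5, 118 and 130 (2.79 ± 0.73), with unbound 1 below the 4.47 that 3 reads are worth there. CUT510 across RPA14 rose by 1.90 and antisense2401 across RPA43 did not pass the test (0.83 ± 0.48, adjusted p = 0.139), although it was called enriched without unbound 2 (1.41, adjusted p = 0.00512) and with total count and mRNA-only scaling. RPC19 and YNL114C share 405 bases and also moved apart. YNL114C rose from 11.9, 21.3 and 10.3 to 212, 215 and 235 (3.90 ± 0.31), while RPC19 fell from 1532, 1366 and 1777 to 394, 348 and 423.

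RPO26 and MLC2 are both protein-coding and share 605 bases. MLC2, which encodes a myosin light chain, was enriched from 669, 625 and 657 to 1338, 1232 and 2002 (1.19 ± 0.20, adjusted p = 0.000452), and RPO26 was reduced. RPC37 had no abundant non-coding RNA opposite. Its antisense1678 had a mean of 6.99 normalised counts, below the minimum. Its 3′ part, however, lies over 533 bases opposite the mRNA of GCN3, a translation initiation factor subunit, which stood at 140% of RPC37 per length in the unbound RNA. GCN3, again named after its values had been seen, went from 2434, 2126 and 2249 to 1714, 1795 and 1607 (-0.41 ± 0.15, adjusted p = 0.033). That call was lost with TMM scaling (adjusted p = 0.168) and without unbound 1, unbound 2, unbound 3 or eluate 1 (adjusted p up to 0.147), and the change turned positive with total count and mRNA-only scaling (up to 0.90).

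**Figure D4:**
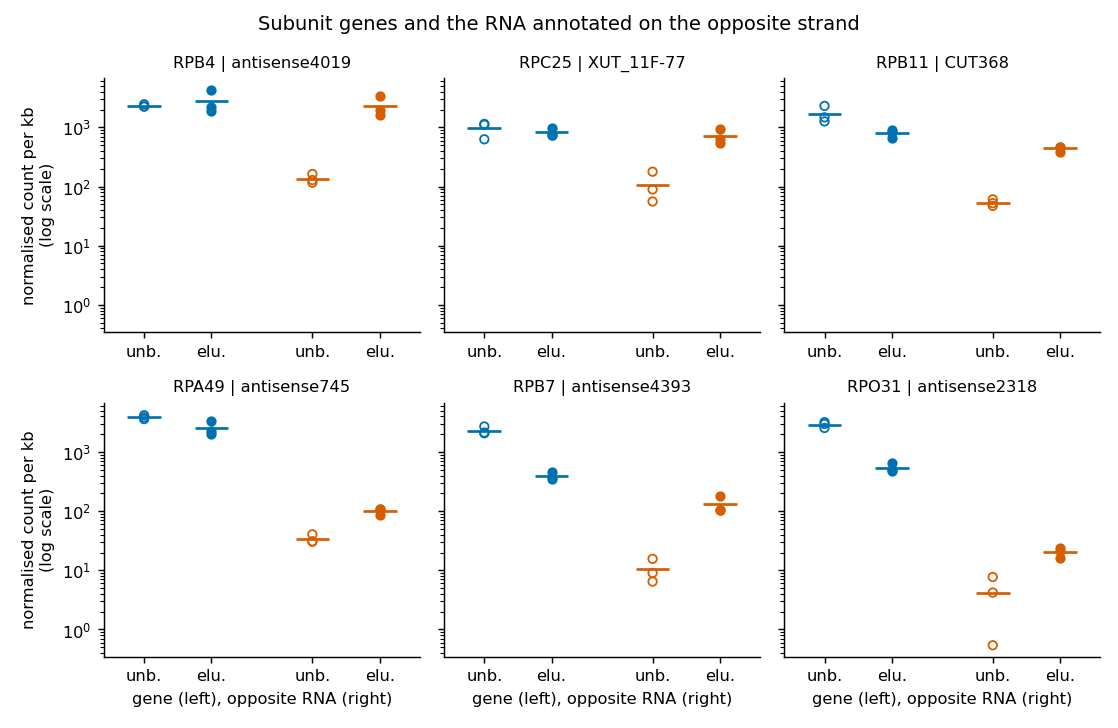
Normalised count per kb (vertical axis, log scale) of 6 subunit genes (blue) and of a non-coding RNA on the opposite strand (orange) in the unbound (open) and eluate (filled) libraries, with bars at the means. The orange points rise in all 6 panels, and come near the blue points for RPB4, RPC25 and RPB11.

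The relative level of the opposite non-coding RNA was set against the change of the gene for the 26 members that had one. RPB4 (log2 ratio -0.79 over all libraries), RPC25 (-1.10) and RPB11 (-2.29) led the order, followed by RPA14 (-3.62). The rank correlation with the fold change was 0.115 over the 26 genes (Pearson 0.265) and 0.387 over 5040 protein-coding genes. The gene's own level enters both measures, and the genes share the libraries, so these coefficients are a description. RPC37, RPC82 and RPA49 had high fold changes at low ratios. The 8 members with a non-coding partner above the minimum had a median log2 fold change of -1.54, and the other 23 one of -1.88. RPB7, RPO31, RPA14 and RPA43 are among the 8 only because the eluate values of their partners lift the mean. The split is therefore not independent of the eluate and is a description. Length and GC content were only weakly related to the fold change among the 31 genes (rank correlations 0.29 and 0.20).

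**Figure D5:**
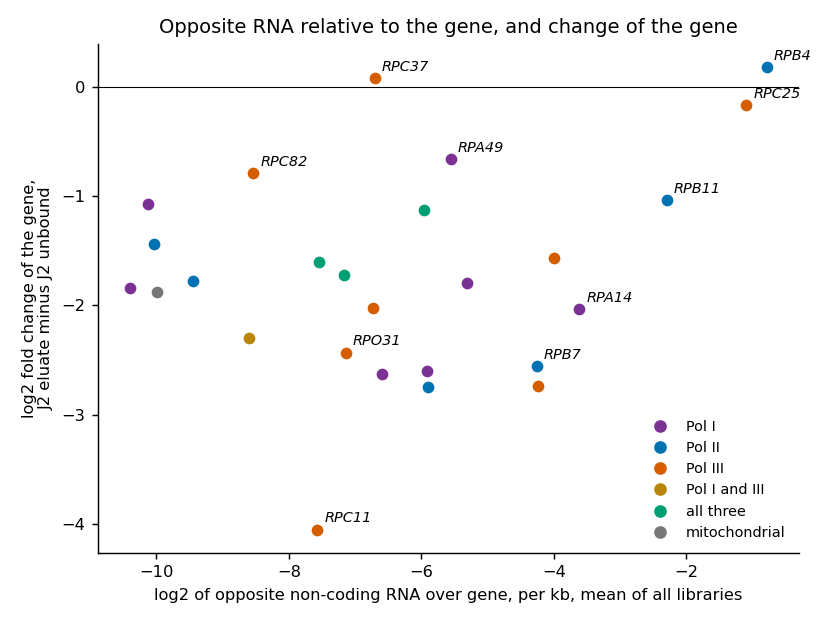
Log2 ratio of the most abundant opposite non-coding RNA to the gene, per kb (horizontal axis), against the log2 fold change of the gene (vertical axis), for 26 subunit genes coloured by enzyme. RPB4 and RPC25 stand at the upper right, while RPC37 has a similar fold change at a far lower ratio.

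The promoters of these genes hold a feature that sorts them by enzyme. The PAC element, named after RNA polymerases A and C (the older names of Pol I and Pol III), has the core GATGAG and was searched on both strands in the 250 bases upstream of each annotated transcript. It was found in 14 of the 31 genes, beside 17.9% of 6291 nuclear protein-coding genes. All 14 belong to the 18 genes for subunits of Pol I, of Pol III or of both, and it was in 0 of the 12 genes for subunits of Pol II or of all enzymes. AAAATTTT, the core of the ribosomal RNA processing element (RRPE), was in 13 of the 31 and in 9.28% of all. The extended PAC form GCGATGAG, which contains the core, was in 6 of the 31 and in 3.83% of all. The 6 promoters are given as 60 bases each, 5′ to 3′ on the strand of the gene, from R64, with the match in capitals, which reads CTCATCGC where it lies on the other strand. They lie at chrXI:176642-176701 (RPC25, minus strand), chrXI:487480-487539 (RPC37, plus), chrXIV:412616-412675 (RPC19, plus), chrXIV:182707-182766 (RPA49, minus), chrXVI:746894-746953 (RPC40, minus) and chrXVI:919130-919189 (RPC82, minus).
RPC25: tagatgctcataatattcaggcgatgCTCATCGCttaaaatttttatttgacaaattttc
RPC37: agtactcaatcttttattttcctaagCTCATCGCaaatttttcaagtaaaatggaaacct
RPC19: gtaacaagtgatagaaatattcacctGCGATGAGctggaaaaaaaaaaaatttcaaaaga
RPA49: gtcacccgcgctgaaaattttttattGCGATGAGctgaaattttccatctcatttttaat
RPC40: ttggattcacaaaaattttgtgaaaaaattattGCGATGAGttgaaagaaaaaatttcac
RPC82: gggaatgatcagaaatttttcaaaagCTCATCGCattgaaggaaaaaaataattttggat

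The genes with the PAC core had a median log2 fold change of -1.92 and those without it -1.88. The 6 with the extended form had a median of -0.72 and the other 25 one of -2.02. RPC25, RPC37, RPA49 and RPC82 are among these 6, as are RPC40 and RPC19, which were 4.81-fold and 4.01-fold lower in the eluate. This grouping was made after the fold changes were known and was not tested.

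The factors that work with the polymerases, with the Pol III subunit gene RET1 added, were taken as a list of 48 genes, all above the minimum. Of these, 42 were reduced, 3 were enriched and 3 did not pass the test, and the median on the log2 scale was -1.77. The background for these counts is again 74.4% reduced and 8.0% enriched. All 10 Pol III genes of the list (RET1 among them), 9 of 10 Pol I factors and 22 of 27 Pol II factors were reduced. SPT15, the TATA-binding protein that serves all nuclear polymerases, fell most, from 4690, 4331 and 4632 to 331, 313 and 488 (-3.62 ± 0.20). TAF14, a subunit of several Pol II factor complexes, followed with -3.55 ± 0.35. RET1, the second largest subunit of Pol III, went from 10987, 10512 and 8495 to 2641, 2104 and 2092 (-2.13 ± 0.18), close to RPO31.

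TFB5, a small subunit of the Pol II factor TFIIH, stood out in the other direction. It rose from 256, 243 and 272 normalised counts to 1834, 1436 and 1830 (log2 fold change 2.71 ± 0.17, adjusted p = 7.63e-07), a larger rise than the value of any polymerase subunit gene. RTR1, a phosphatase of the Pol II C-terminal domain, was 2.04-fold higher in the eluate, with 1188, 1299 and 859 in the eluates against 561, 528 and 552. The last of the 3 enriched genes, TFA2, changed by 0.48 (adjusted p = 0.0208), a call lost without unbound 1, unbound 2 or eluate 2. UAF30, TFB3 and SSL1 did not pass the test. SSL1 (log2 fold change 0.52) was called enriched with the replicate block (limma adjusted p = 0.0282), edgeR (adjusted p = 0.0467), DESeq2 (adjusted p = 0.0481), TMM, total count and mRNA-only scaling and without eluate 3. UAF30 was called enriched with total count and mRNA-only scaling, and TFB3 was called enriched with mRNA-only scaling and reduced without eluate 3. These 4 genes were named after their values had been seen. With total count scaling 33 of the 48 were reduced and 5 enriched, and with mRNA-only scaling 24 and 9, beside the shares of protein-coding genes given for these scalings.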

How the data were processed

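Wild-type yeast RNA was analysed as 3 J2 unbound and 3 J2 eluate libraries. Per the labels and the methods, the authors aligned reads with STAR to sacCer3, counted them with featureCounts (Subread 1.5.0-p1) over genes with untranslated regions and non-coding transcripts, and used DESeq2 1.24.0 in R 3.6.1. They deposited a signal per feature and library, which is the read count divided by a size factor. The deposited table also holds group means, a log2 fold change and a p-value with its adjusted value, all from the authors' own comparison. Those log2 and p-value columns were not used.

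The table was collapsed to 15753 features. Values are whole multiples of a step per library, so whole reads were recovered for at least 99.99% of values. The eluate was compared with the unbound RNA on log2(value + 1) with limma 3.58.1 (R 4.3.3), with calls at an adjusted p under 0.05 and a mean normalised count above 40. Alternatives were pseudocounts of 0.5 and 10, no minimum, TMM, total count and mRNA-only scaling, edgeR 4.0.16 and DESeq2 1.42.0 on the recovered reads (each called 28 subunit genes reduced), the replicate block, each library left out in turn, and any overlap for opposite features. The tests were tested on simulated data. Unbound and eluate libraries with the same number in the labels come from the same reaction per the methods, and their deviations from the group means correlated at 0.228, 0.321 and 0.299. The paper describes the 3 samples per group as biologically independent, and the labels do not say whether they came from separate cultures. The p-values measure the spread between these samples. PCR copies cannot be told from separate molecules here, so the floor of 3 reads allows for counting error alone. Coding starts and ends equalled those of R64 for 99.88% of 5811 shared genes. All 31 transcripts consist of 50-base windows found at a single place in the genome.

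Every subunit gene was named. Of opposite-strand features above the minimum the 12 with the longest overlap were named, and of the transcription list the extremes and RET1. The members, the lists and the tests were chosen with earlier results of these data known.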

Additional observations from a re-analysis of the deposited data

How the results depend on the processing

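The counts of subunit genes called reduced and enriched were the same as reported, 28 and 0, with pseudocounts of 0.5 and 10, no minimum, edgeR, DESeq2 and the replicate block (28 reduced), which changed no call of a subunit gene or of an opposite feature and added SSL1 to the enriched genes of the transcription list. They ranged from 27 to 28 reduced and from 0 to 0 enriched when any single library was left out. The median log2 fold change ranged from -1.96 to -1.77 in those fits. It was -1.71 with TMM scaling, -0.96 with total count scaling and -0.57 with mRNA-only scaling. The count of enriched subunit genes was 3 and 5 under the last 2 scalings, which move the median of all features from -0.46 to 0.45 and 0.85. With total count scaling the log2 fold changes of RPC25 (0.75), RPA49 (0.26) and RPC82 (0.13) turned positive. With mRNA-only scaling this held for RPC10 (0.18), RPC25 (1.14), RPA49 (0.66), RPB11 (0.28), RPA190 (0.25) and RPC82 (0.53), and RPB4 and RPC37 were called enriched under both. Without eluate 3, RPB4 (-0.18) and RPC37 (-0.10) turned negative without a call, and over the fits that leave out a library they ranged up to 0.41 and 0.17. Opposite-strand features called enriched numbered 13 to 14 when a library was left out, 15 under total count and mRNA-only scaling, 17 with any overlap, and 23 with no minimum, where more features are tested. Every subunit gene is far above the floor of 3 reads in each library.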
